A study of Mus musculus with 4 samples.

Results

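The FGF receptor and ERK signalling genes are 8 mouse genes that carry the FGF19 signal from the hepatocyte surface to the ERK kinase and to PKC zeta: Fgfr4, Klb, Frs2, Ptpn11, Grb2, Sos1, Mapk3 and Prkcz. They were taken by name from knowledge of the pathway, out of 22380 annotated protein-coding genes, with earlier results of these data known. SHP peaks were assigned to them when the peak interval lay within 5 kb of the gene body. SHP (NR0B2), an orphan nuclear receptor without the zinc fingers by which its relatives hold DNA, was located by ChIP-seq in livers of wildtype male C57BL/6 mice, 8 to 12 weeks old, that had been fasted for 12 h. The mice received vehicle or FGF19 at 1 mg/kg through the tail vein, and livers were taken 2 h later. Each treatment is 1 SHP ChIP library with 1 input library, made from pooled material of 3 mice, so no difference between the treatments can be set against a replicate error and no p-value is given for any. RNA was not measured, and the liver label was not checked against marker genes.

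FGF19 is the human counterpart of mouse FGF15, an intestinal hormone released after a meal. It binds FGF receptor 4 (Fgfr4) together with the co-receptor beta-Klotho (Klb) on hepatocytes. The activated receptor phosphorylates the docking protein FRS2, which holds the adaptor GRB2 and the phosphatase SHP2 (product of Ptpn11, unrelated to SHP despite the name). GRB2 brings the exchange factor SOS1 to the membrane, where it loads Ras with GTP, and Ras starts the kinase cascade that leads through MEK to ERK1 (Mapk3). PKC zeta (Prkcz) is the atypical protein kinase C that is known to phosphorylate SHP in FGF19 signalling. Several of these proteins therefore act upstream of SHP, and the comparison asks whether SHP was in turn found on their genes.

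SHP peaks were listed at 3 of the 8 genes. Mapk3 and Ptpn11 had 1 peak each in the FGF19 list and none in the vehicle list, and Prkcz had 1 peak in each list. Fgfr4, Klb, Frs2, Grb2 and Sos1 had no peak in either list. The members with an FGF19 peak were thus 3 of 8, or 37.5% (95% Wilson interval 13.7 to 69.4), where 16.3% of all protein-coding genes had one by the same rule. With vehicle it was 1 of 8, or 12.5% (2.24 to 47.1), beside 7.93% of all genes. A peak in the FGF19 list only was found at 2 members and 12.0% of all genes, a peak in both lists at 1 member and 4.31%, and a peak in the vehicle list only at 0 members and 3.62%. The 5 members without any peak compare with 80.1% of all genes. With 8 genes these intervals are wide, and both contain the value of all genes. They do not test enrichment, because the 8 genes were not drawn at random.

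All 4 member peaks lay at the start of the gene, where the rule allows any position within 5 kb of the whole gene body. The paper reports that SHP peaks favoured promoter regions with both treatments. A position at the start is therefore common among SHP peaks and does not single out the members. The summits of the member peaks were 68 to 166 bp from the annotated gene start, 3 upstream of it and 1 downstream. No other annotated gene lay within 5 kb of any of the 4 peaks, so each peak has a single candidate gene. Counting only peaks within 1 kb of a transcript start, the members with a peak were the same 3, and the share of all genes was 5.61% with vehicle and 12.6% with FGF19. This narrower rule matters for the comparison because the members are long, with a median gene body of 62.7 kb against 15.4 kb over all protein-coding genes.

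The part of the Prkcz and Ptpn11 peaks that lies before the gene start is shown here as read from the mm9 genome, 5′ to 3′ on the strand of the gene, because each belongs to a listed SHP interval. The Prkcz stretch holds both summits, while the Ptpn11 summit lies downstream of the start, outside the stretch shown. Capitals mark exact matches, on either strand, to any of 8 sequences that were searched: SP1 (CCCCGCCCC), NF-Y (ATTGGC), YY1 (AANATGGC), NRF1 (CGCATGCG), ETS (CCGGAAG), CRE (TGACGTCA), the nuclear receptor site AGGTCA and the E-box CACGTG. The first sequences are from these genes with a peak, with the FGF19 interval used for Prkcz. The last 3 are the 150 bp before the start of Fgfr4, Klb and Grb2, which had no peak, and are shown for contrast.
Prkcz, chr4:154735488-154735750, minus strand: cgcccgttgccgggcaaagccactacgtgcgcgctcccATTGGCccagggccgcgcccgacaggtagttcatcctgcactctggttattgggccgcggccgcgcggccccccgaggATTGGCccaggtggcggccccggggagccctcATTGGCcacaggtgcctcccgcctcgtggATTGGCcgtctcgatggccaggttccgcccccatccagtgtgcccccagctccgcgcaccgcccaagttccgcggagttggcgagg
Ptpn11, chr5:121641407-121641578, minus strand: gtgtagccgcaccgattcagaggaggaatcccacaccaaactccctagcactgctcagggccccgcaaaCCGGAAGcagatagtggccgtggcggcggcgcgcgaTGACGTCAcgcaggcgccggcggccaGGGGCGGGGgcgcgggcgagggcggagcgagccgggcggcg
Fgfr4, chr13:55253851-55254000, plus strand: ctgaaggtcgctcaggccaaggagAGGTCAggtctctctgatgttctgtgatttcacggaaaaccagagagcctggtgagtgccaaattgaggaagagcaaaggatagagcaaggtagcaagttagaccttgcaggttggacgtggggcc
Klb, chr5:65739475-65739624, plus strand: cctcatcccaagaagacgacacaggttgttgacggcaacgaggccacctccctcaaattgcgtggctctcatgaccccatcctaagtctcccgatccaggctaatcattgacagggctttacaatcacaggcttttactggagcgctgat
Grb2, chr11:115569912-115570061, minus strand: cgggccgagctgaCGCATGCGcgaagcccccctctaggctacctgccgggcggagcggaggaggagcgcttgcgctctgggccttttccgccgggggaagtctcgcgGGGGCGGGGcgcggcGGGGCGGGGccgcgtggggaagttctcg

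Prkcz, on chromosome 4 from 154634238 to 154735470 on the minus strand, was the member listed in both groups. The vehicle peak ran from 154735303 to 154735858, 556 bp that reach across the gene start, with its summit 68 bp upstream of the start. The FGF19 peak ran from 154735488 to 154735750, 263 bp that lie wholly inside the vehicle interval and stop 18 bp short of the gene body, with its summit 108 bp upstream. The summits were 40 bp apart. The pileup, which is the number of ChIP tags that cover the summit after extension to fragment length, was 20 with vehicle and 19 with FGF19. The fold enrichment, the ratio of this pileup to the local input background after 1 is added to each, was 3.11 in the vehicle list but 5.23 in the FGF19 list (FGF19 over vehicle 0.75 on the log2 scale). The pileups were therefore nearly equal while the fold enrichments were not.

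The difference in fold enrichment at Prkcz came with a difference in the background term. Worked back from the deposited values, the summit background came to 5.74 tags in the vehicle group but 2.83 in the FGF19 group. After undoing the scaling of input to ChIP, these correspond to an input level of 6.00 tags with vehicle and 3.65 with FGF19. The FGF19 value is not a whole number, so it cannot be a plain count of input tags at the summit. A count of 6 tags has an exact 95% Poisson interval of 2.20 to 13.1, but this interval does not apply to the FGF19 value. Whether the backgrounds differ beyond counting error was not tested. The pileup, as CPM of the ChIP library, was 1.29 with vehicle (95% Poisson interval 0.790 to 2.00) and 1.41 with FGF19 (0.851 to 2.21). The ratio of FGF19 to vehicle was 1.09, with an exact 95% interval of 0.552 to 2.16. It is not corrected for the longer tag extension with FGF19 (260 bp against 240 bp), which by itself raises the pileup. All these intervals cover counting error only. At this depth no difference in SHP signal between the treatments was detectable at Prkcz.

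Mapk3, which encodes ERK1, lies on chromosome 7 from 133903115 to 133909333 on the plus strand, and is the shortest of the 8 genes at 6.22 kb. Its FGF19 peak ran from 133902867 to 133903169, 303 bp that begin upstream and end just past the gene start. The summit was 166 bp upstream, outside any annotated gene. The pileup was 28 tags (95% Poisson interval 18.6 to 40.5) over a background of 4.04, and the fold enrichment was 5.76. By fold enrichment the peak stood at percentile 91.5 of the 3155 FGF19 peaks, and by -log10 q-value, which was 10.4, at percentile 90.2. Mapk3 was the strongest of the member peaks by pileup, fold enrichment and q-value. The nearest vehicle peak was 119 kb from the gene, at Taok2.

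Ptpn11, on chromosome 5 from 121580542 to 121641406 on the minus strand, carried a weaker FGF19 peak from 121641159 to 121641578. It is 420 bp long and spans the gene start, and its summit lay in an annotated exon 130 bp downstream of the start. The pileup was 24 tags (95% Poisson interval 15.4 to 35.7), equal to the median of the FGF19 list. The background of 6.46 was higher than at Mapk3, and the fold enrichment of 3.35 stood at percentile 20.6 and the -log10 q-value of 3.85 at percentile 28.7. The nearest vehicle peak was 28.8 kb from the gene body.

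**Figure D1:**
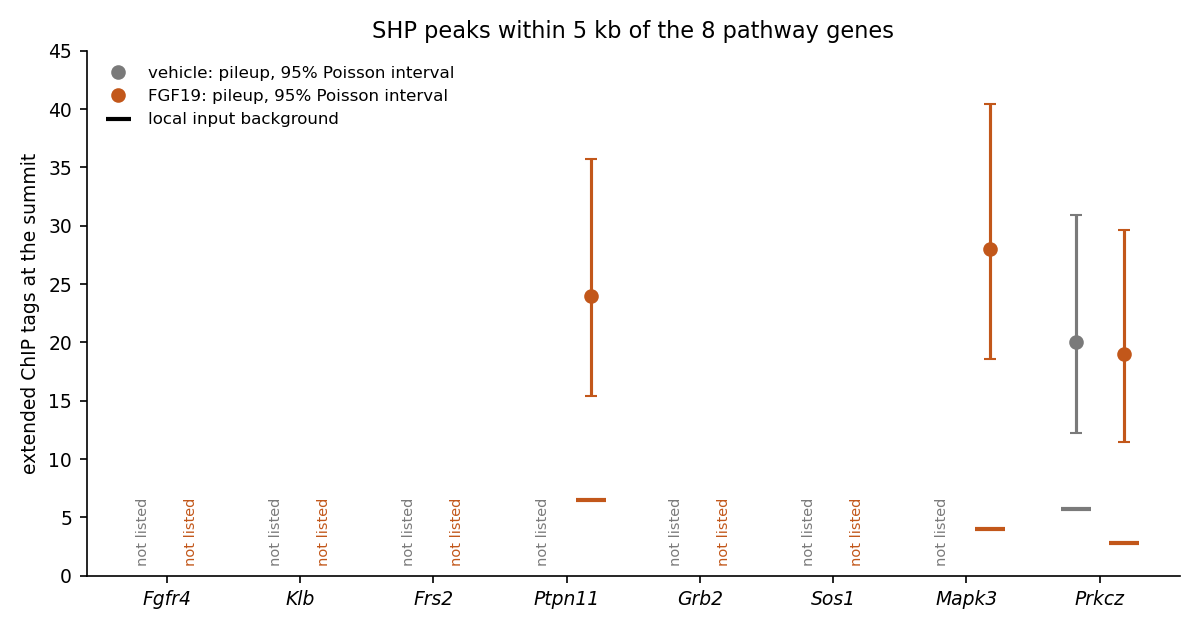
Pileup of extended ChIP tags at the summit (vertical axis, tags) for each of the 8 genes, with vehicle in grey and FGF19 in orange. Points carry exact 95% Poisson intervals, which cover counting error only, short horizontal bars give the local input background, and genes without a peak are marked as not listed. The Prkcz pileups of 20 and 19 are close to each other, while their backgrounds are 5.74 and 2.83.

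How far a missing vehicle peak bounds the vehicle signal was worked out from the peak caller's own rule. The deposited p-values were recovered from pileup and background as the upper tail of a Poisson distribution to within 0.000179 on the -log10 scale. The lowest -log10 p-value listed was 4.75 with vehicle and 4.37 with FGF19. If the vehicle background at Mapk3 matched that of the FGF19 group after scaling, a pileup of 15 tags would have reached the lowest listed vehicle p-value. The signal seen with FGF19 corresponds to 29.7 tags after scaling for library size and tag extension. At Ptpn11 the same reckoning gives 20 tags needed and 25.5 tags for an unchanged signal. The distance between what was seen and what was needed is therefore wide at Mapk3 and small at Ptpn11. The vehicle backgrounds at these sites were not analysed here, and the caller also asks for a minimum length, so these figures are conditional and bound no fold change.

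**Figure D2:**
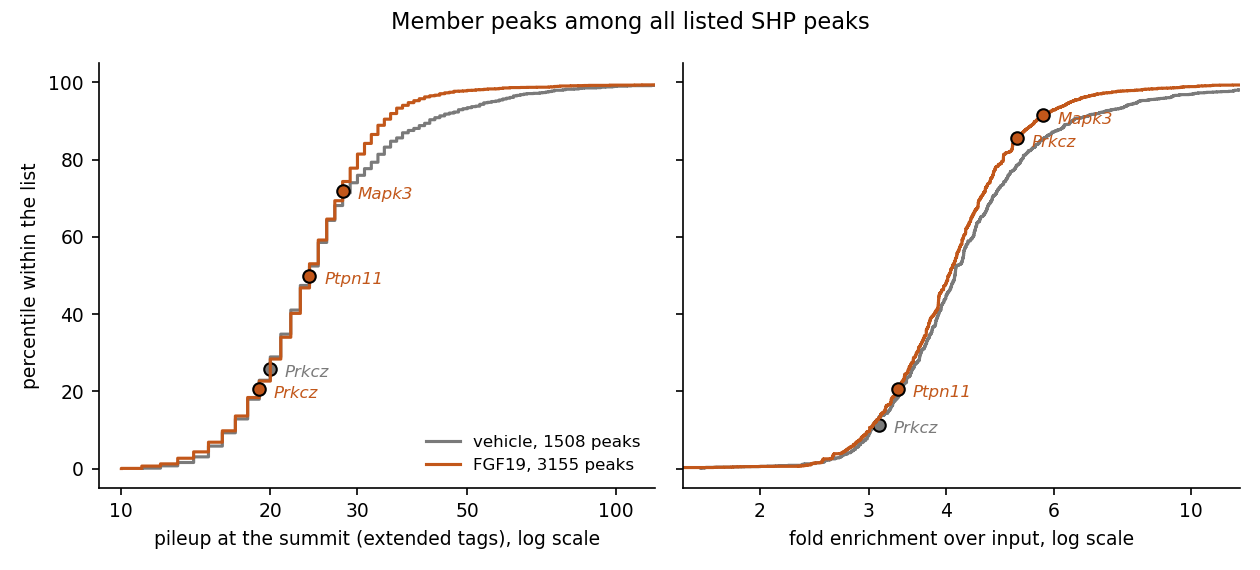
Percentile within the list (vertical axis, percent) against pileup in tags (left) and fold enrichment (right), both on log axes, for the 1508 vehicle peaks in grey and the 3155 FGF19 peaks in orange, with the member peaks as points. Mapk3 is above the list median in both panels. Prkcz with FGF19 is at percentile 20.5 by pileup and 85.5 by fold enrichment.

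The order of the member peaks depended on the measure. By pileup the FGF19 peaks ranked Mapk3 (28 tags), Ptpn11 (24) and Prkcz (19), at percentiles 71.8, 49.9 and 20.5, and the Poisson intervals of neighbours overlap. By fold enrichment Prkcz moved above Ptpn11, with 5.23 against 3.35. The Prkcz background of 2.83 was at percentile 9.11 of the FGF19 list, and that of Ptpn11 was at percentile 72.6. The vehicle peak of Prkcz was among the weaker of its list, at percentile 25.9 by pileup, 11.4 by fold enrichment and 7.39 by -log10 q-value (2.38). It was also among the longer ones, at percentile 90.6 by length, while the FGF19 peak was at percentile 6.85 of its list.

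The 5 members without a peak stood apart from any peak to differing degrees. Fgfr4, on chromosome 13 from 55254001 to 55270120, was 276 kb from the nearest vehicle peak, at Grk6, and 42.4 kb from the nearest FGF19 peak, at Nsd1. Klb, on chromosome 5 from 65739625 to 65775242, was 109 kb from the nearest vehicle peak and 12.3 kb from the nearest FGF19 peak, whose summit was 12 bp from the start of Rfc1. Frs2, on chromosome 10 from 116507185 to 116585530, had a vehicle peak 6.10 kb beyond its 3′ end, just outside the 5 kb limit, but the summit of that peak was 11 bp from the start of the chaperonin gene Cct2. The nearest FGF19 peak to Frs2 was 75.7 kb away. Grb2, on chromosome 11 from 115505359 to 115569911, was 39.9 kb from a vehicle peak and 31.1 kb from an FGF19 peak. Sos1, on chromosome 17 from 80793092 to 80879793, was 186 kb from the nearest peak in both lists, at the start of the splicing factor gene Srsf7. For each of these 5 genes the nearest peak in either list lay at the start of another gene, with its summit at most 510 bp from that start.

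The sequences before the gene starts differed in base composition. In the window reaching 100 bp to either side of the gene start, GC content was 87.1% at Mapk3, 81.6% at Ptpn11 and 75.1% at Prkcz, the 3 genes with a peak. It was 76.6% at Grb2, 72.6% at Sos1 and 72.1% at Frs2, which had none, so the groups overlap. The receptor genes were the lowest, with 57.7% at Fgfr4 and 48.8% at Klb, at percentiles 47.0 and 23.0 of all gene starts. The median was 58.7% over 22364 gene starts. Around the summits of all peaks the median GC content was 63.7% with vehicle and 68.2% with FGF19, and the member summits had 65.2% (Mapk3), 73.1% (Prkcz with FGF19) and 78.1% (Ptpn11). CpG dinucleotides were also fewest in the windows of the receptor genes, with 11 at Fgfr4 and 5 at Klb, against 21 to 35 at the other 6 genes.

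The Prkcz start was the one member site with a searched sequence close to the summit. It held 4 copies of ATTGGC, the reverse complement of GCCAAT and the core of the CCAAT box that NF-Y binds, all in the same orientation on the strand of the gene, as the capitals show. They lay 7, 22, 54 and 132 bp from the FGF19 summit and 33, 62, 94 and 172 bp from the vehicle summit. Within 100 bp of the summit, 3 of them were counted in each group. At least 3 copies within this distance occurred at 3 of 1508 vehicle peaks (0.199%), at 8 of 3148 FGF19 peaks outside the mitochondrial genome (0.254%) and in 28 of 22367 windows of the same length on gene starts (0.125%). At least 1 copy occurred at 11.2%, 11.1% and 12.0% of these. The run of copies at Prkcz was noticed in the data and then counted.

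The peaks of Mapk3 and Ptpn11 held none of the 8 sequences within 100 bp of the summit. This says nothing of the rest of their intervals, and matches farther out are given for the printed Ptpn11 stretch alone. It had 1 match each to the SP1, CRE and ETS sequences, 167, 194 and 230 bp from the summit. ETS factors such as ELK1 are nuclear substrates of ERK, and CREB binds the CRE. The Grb2 start, which had no peak, held 2 SP1 matches and 1 NRF1 match in 150 bp. Frs2, also without a peak, had an ETS match in the 150 bp before its start. In the windows reaching 100 bp to either side of all gene starts, the shares with a match were 11.9% for SP1, 9.39% for ETS, 1.93% for CRE and 1.80% for NRF1. At FGF19 summits they were 14.8%, 9.72%, 1.87% and 2.35%, and at vehicle summits 13.1%, 7.82%, 1.53% and 1.92%. The Ptpn11 matches lay farther from the summit than these summit windows reach. The nuclear receptor sequence AGGTCA, in 9.08% of vehicle and 7.15% of FGF19 summit windows and 8.90% of gene starts, was at none of the 4 member summits, but 1 copy stood before the start of Fgfr4, which had no peak. The YY1 sequence (9.75%, 7.56% and 5.72%) and the E-box (6.37%, 6.42% and 5.57%) were at none of them either. A match is a string of letters and not evidence that a factor was bound.

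A wider list of the pathway was then read by the same rule, with 85 of 87 names found in the annotation and the 8 genes above left out. Peaks within 5 kb were found for 25 of the 85 genes in the FGF19 list, 29.4% (95% Wilson interval 20.8 to 39.8), and for 10 in the vehicle list, 11.8% (6.52 to 20.3), beside 16.3% and 7.93% of all protein-coding genes. The genes of this list were chosen with earlier results of these data known and were not drawn at random. The intervals in this paragraph therefore do not test enrichment, and the gene lengths of the list were not compared. The FGF19 list alone had a peak at 20 of them, the vehicle list alone at 5, and both lists at 5, where the shares over all genes are 12.0%, 3.62% and 4.31%. The FGF19 list is the longer one, with 3155 peaks against 1508, and with its 1508 best peaks by q-value the FGF19 count fell to 11 of the 85 genes and the share of all genes to 8.06%. Counting only peaks within 1 kb of a transcript start of the gene itself left 19 genes with FGF19, 22.4% (14.8 to 32.3), and 8 with vehicle, 9.41% (4.85 to 17.5), beside 12.6% and 5.61% of all genes. Of these, 5 with FGF19 and 2 with vehicle also had the start of another gene within 1 kb of the summit. The promoter summits of the wider list had a median fold enrichment of 4.03 with FGF19, with 9 of 20 above the list median of 4.05, and 3.65 with vehicle, with 1 of 8 above the list median of 4.14.

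**Figure D3:**
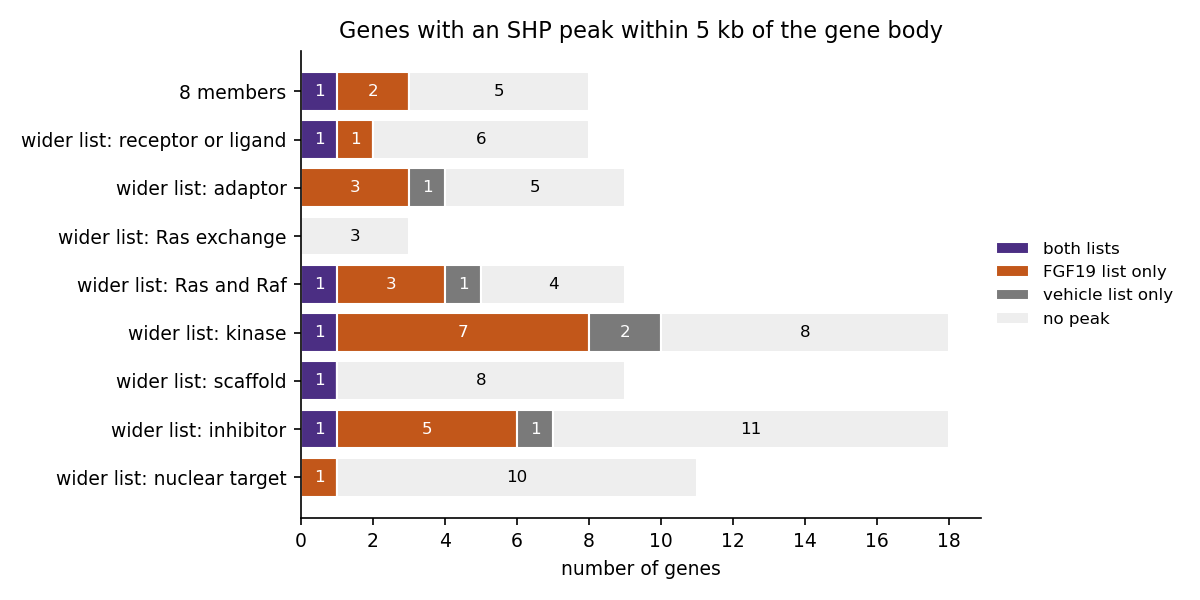
Number of genes (horizontal axis) with an SHP peak within 5 kb of the gene body in both lists, in 1 list only or in neither, for the 8 members and for the roles in the wider list. The roles with the most genes, kinases and inhibitors at 18 each, have 7 and 5 FGF19-only genes. These shares of 38.9% and 27.8% stand beside 12.0% of all protein-coding genes and do not test enrichment. The gene counted in both lists among receptors and ligands is Fgfr2, whose annotated model spans other genes.

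Of the kinases between Ras and ERK1, the FGF19 list had a peak at the start of Braf and of both MEK genes, Map2k1 and Map2k2. These genes were set beside Mapk3 after their values were seen. At Braf the FGF19 peak had a pileup of 22 tags, a fold enrichment of 5.95 and its summit 44 bp downstream of the start. The Map2k1 (MEK1) peak had 31 tags and a fold enrichment of 3.11, with its summit 41 bp downstream. Neither gene had a vehicle peak, as Mapk3 had none.

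Map2k2 (MEK2) was listed in both groups, like Prkcz. It had a fold enrichment of 4.55 with vehicle and 4.50 with FGF19, with 35 and 38 tags and a library-size-scaled ratio of 1.25 (exact 95% interval 0.769 to 2.04). This ratio too is not corrected for the longer tag extension with FGF19. The interval contains 1, so no change in SHP signal was detectable at this gene start. The FGF19 list also had a peak 4524 bp from the gene body (16 tags, fold enrichment 4.02), without a vehicle counterpart. No transcript start lay within 1 kb of its summit.

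**Figure D4:**
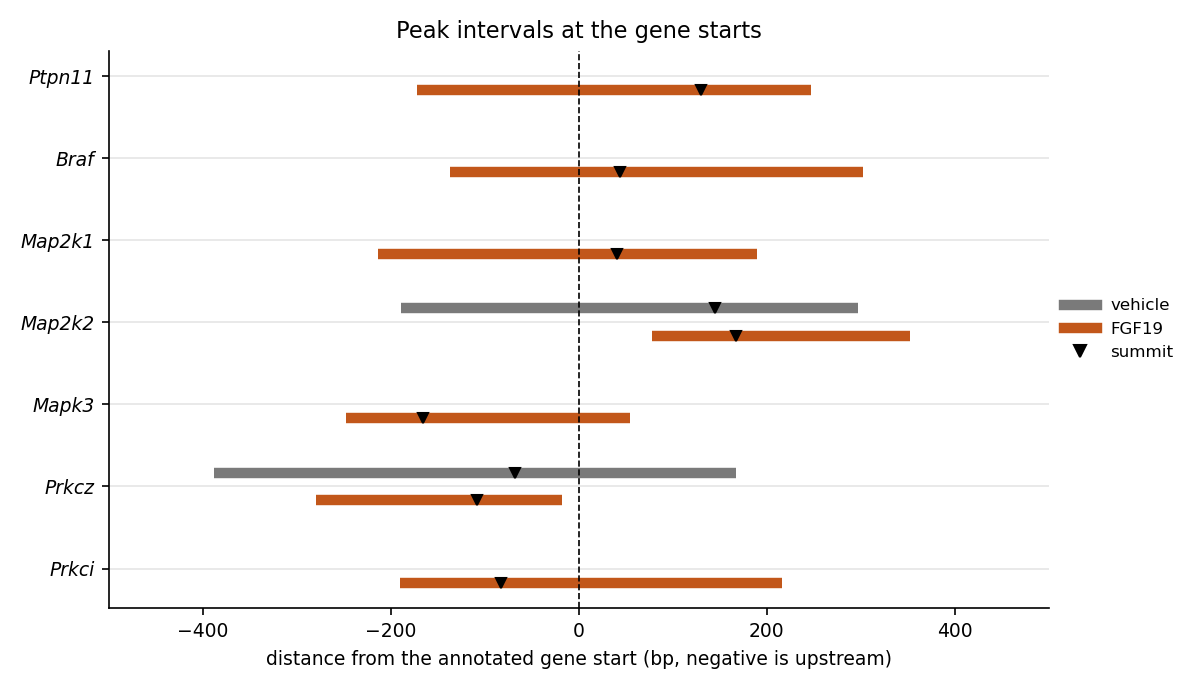
Peak intervals (bars) and summits (triangles) at 7 genes of the pathway, drawn by distance from the annotated gene start in bp, with negative values upstream, vehicle in grey and FGF19 in orange. The FGF19 bar of Prkcz ends 18 bp before the gene start. Map2k2 and Prkcz have a bar in both colours and the other 5 genes in orange only.

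The protein kinase C genes were mixed. Prkci, the other atypical PKC and the closest relative of Prkcz, had an FGF19 peak with 22 tags and a fold enrichment of 4.23, with its summit 83 bp upstream of the start, and no vehicle peak. Of the conventional and other PKC genes, Prkca had 2 FGF19 peaks near its start (fold enrichments 5.16 and 4.34) and Prkce had 1 (3.97), while Prkcb and Prkcd had none. The start of Apoh, a gene of a plasma protein made in liver, lies within 1 kb of both Prkca summits. PDK1 (Pdpk1), the kinase that primes PKC enzymes for activity, had an FGF19 peak at an internal transcript start with a fold enrichment of 2.82. Sqstm1, which encodes the PKC zeta scaffold p62, had an exonic peak in both lists about 10 kb inside the gene, with fold enrichments of 4.77 with vehicle and 3.17 with FGF19 and nearly equal pileups of 23 and 22 tags. As at Prkcz, the backgrounds differed, here 4.03 with vehicle and 6.26 with FGF19, in the opposite direction.

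Among adaptors and Ras genes, the FGF19 list alone had a peak at Cbl, a ubiquitin ligase that ends receptor signalling (28 tags, fold enrichment 4.03), at Hras1 (24 tags, 3.88) and at an internal start of Frs3, the relative of Frs2 (20 tags, 2.64). The vehicle list alone had one at Plcg1, the phospholipase that FGF receptors activate (19 tags, 4.14), and at Shoc2, a scaffold that promotes RAF activation (32 tags, 3.64). Starts of other genes also lay within 1 kb of the summits at Hras1 (Lrrc56), Frs3 (Prickle4) and Shoc2 (Bbip1). The Frs3 peak was near the call limit, with a -log10 q-value of 1.66. The peaks assigned to Shc1 and Rras by distance had their summits within 1 kb of the starts of Pygo2 and Scaf1 instead. Among receptors, Fgfrl1, an FGF receptor without a kinase domain, had an FGF19 peak 802 bp downstream of its start (18 tags, 5.72). The 8 peaks assigned to Fgfr2 rest on 1 annotated transcript that makes the gene 3.01 Mb long. No summit among them was closer than 253 kb to an Fgfr2 start, and each lay within 1 kb of the start of another gene. Fgfr1, Fgfr3 and the Klotho gene Kl had no peak within 5 kb, like Fgfr4 and Klb.

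Of 18 inhibitors in the wider list, 5 had a peak with FGF19 only and 1 with vehicle only. Among its 18 kinases the counts were 7 and 2. The shares over all genes are 12.0% and 3.62%. With FGF19 only, peaks were listed at the starts of Dusp1, a phosphatase of MAP kinases (25 tags, fold enrichment 2.73), Nf1, a Ras GTPase activator (22 tags, 3.20), Rasal2, another one (28 tags, 4.03), and Il17rd, the inhibitor known as Sef (13 tags, 4.21). The start of 2810025M15Rik also lay within 1 kb of the Rasal2 summit. With vehicle only, Dusp3 had a peak (20 tags, 2.73). Its -log10 q-value of 1.61 was near the call limit, at percentile 1.89 of the vehicle list. Spred2, a RAF inhibitor, had a vehicle peak 388 bp upstream of its start (17 tags, 3.66) and a separate FGF19 peak 4011 bp upstream (25 tags, 3.26). The peak assigned to Spred3 had its summit within 1 kb of the start of Fam98c. The Sprouty genes Spry1, Spry2 and Spry4 and the ERK phosphatase gene Dusp6 had none. Of the ERK-activated kinases, Mknk2 had the largest pileup of the wider list (44 tags, fold enrichment 2.86, FGF19 only). Its background of 14.7 tags was at percentile 99.3 of the FGF19 list, and its fold enrichment at percentile 6.80. Mknk1 (26 tags, 4.13) and Rps6ka5 (25 tags, 2.46) had a peak with vehicle only. The Rps6ka5 peak was also near the call limit, with a -log10 q-value of 1.61 at percentile 1.69. Of 11 nuclear targets Egr1, an immediate early gene, was the only one with a peak, 91 bp downstream of its start with FGF19 (24 tags, 3.35), a share of 9.09% beside 16.3% of all genes.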

How the data were processed

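SHP ChIP-seq of mouse liver was read from 2 peak lists, 1 per treatment, which the authors deposited. Per the file headers and labels, the authors mapped reads to mm9 with Bowtie 1.0.0 (up to 2 mismatches) and called peaks against each group's own input with MACS2 2.0.10.20130501 (q-value cutoff 0.05, duplicates reduced to 1 tag). The deposited signal is the pileup of ChIP tags at the summit, extended to 240 bp (vehicle) or 260 bp (FGF19). The deposited fold enrichment is the ratio of pileup + 1 to background + 1. Deposited p-values and q-values are given as -log10. The ChIP libraries held 15473647 tags with vehicle and 13444078 with FGF19, and input was scaled down to them. Reads were not analysed here.

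Distances and gene bodies came from GENCODE M1 and sequence from the NCBIM37 genome, the same build as mm9. All 4663 peaks lay inside its chromosomes. Peaks sharing at least 1 bp were taken as common. The functions passed 9 of 9 checks on made-up intervals and sequence. The members, the wider list and the searched sequences were chosen with earlier results of these data known. All 8 members were named, and genes of the wider list with a peak except some items that are not reported here. Alternatives covered distance, threshold, list length, overlap, measure and motif window. Scripts ran in Python 3.11.15 with pyfaidx 0.9.0.4, scipy 1.17.1, pandas 2.3.3, matplotlib 3.10.9 and numpy 2.4.6.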

Additional observations from a re-analysis of the deposited data

How the results depend on the processing

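Of 73 alternative values, 60 kept within 1.5 times the value given above or within its counting interval. Requiring a peak to touch the gene body dropped the FGF19 peak of Prkcz, giving 0 members in both lists and 1 with vehicle only. A distance of 10 kb added Frs2, giving 2 members with a vehicle peak and 1 with vehicle only. With a -log10 q-value of at least 3 the Prkcz vehicle peak was lost, leaving 0 members with a vehicle peak, 0 in both lists and 6 genes of the wider list with vehicle. Shortening the FGF19 list to its 1508 best peaks by q-value dropped Ptpn11, leaving 1 member with FGF19 only, 11 genes of the wider list and 8.06% of all genes with an FGF19 peak. The log2 ratio at Prkcz changed sign with pileup in place of fold enrichment, to a value of -0.074 on the log2 scale. Motif matches summed over the 4 member peaks were 6, with 3 within 50 bp of the summit and 13 in the whole intervals. Leaving out Fgfr2, chosen after seeing the data, gave 24 and 9 of 84 genes. No paired analysis was possible because each treatment has 1 pooled library.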
